A study of Mus musculus with 2 samples.

Results

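CD8 T cells were picked out of single-cell RNA profiles of whole mouse lung by transcripts they carried or lacked. A cell was kept with at most 10% of its unique molecular identifiers (UMIs, counted transcript molecules) on mitochondrial genes, at least 2 UMIs of Cd3d, Cd3e and Cd3g together, at least 1 UMI of Cd8a or Cd8b1, none of Cd4, Ncr1 or Cd79a, and no more than 1 of 6 genes detected (Gata3, Il1rl1, Icos, Ikzf2, Klrg1, Cxcr6). The rule found 530 cells of 15453 deposited, 279 in control and 251 in fibrosis. Both libraries came from male C57Bl/6J mice aged 3 months that were killed 14 days after 100 µg of particles was given into the trachea. The protocol of each sample names titanium dioxide and crocidolite asbestos, a fibre that scars the lung, and leaves unsaid which of them a given mouse got; the names control and fibrosis used here are those of the labels. Each library came from 1 mouse, so there is no replicate check: every difference is between 2 libraries, no test was run, and every interval is a 95% interval that covers counting error only.

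CD8 T cells recognise peptides shown on MHC class I and kill the cells that show them. Naive cells carry homing molecules for lymph nodes, such as the chemokine receptor Ccr7, and the transcription factors Lef1 and Tcf7. Cells that have met antigen switch on the chemokine gene Ccl5, and effector cells load granules with granzymes and perforin. Memory cells also carry the interleukin-15 receptor chain Il2rb. Cells that stay in lung tissue often carry the integrin Itgae and the retention gene Cd69.

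The CD8 T cells held 1013739 UMIs in control (median 3234 per cell, lowest 1502) and 929440 in the fibrosis library (median 3063, lowest 1967), so depth was nearly matched. Levels are given as CPM, a gene's UMIs summed over the class and scaled so that every sum over all genes has the same total, and a difference as a log2 ratio with 0.5 UMI added to each sum. Of the deposited barcodes, 89 occur in both libraries, and no CD8 T cell barcode is shared between the CD8 T cells of both.

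The genes behind the rule are given as description. Each cell had to carry Cd8a or Cd8b1, so their detection follows in part from the rule and is no support for it. Cd8b1, the chain found on conventional CD8 T cells as a partner of Cd8a, was detected in 263 control cells (94.3%) and 230 fibrosis cells (91.6%). Cd8a was detected in 190 cells (68.1%) and 148 cells (59.0%). The gene pair lies together on chromosome 6 of GRCm38, Cd8b1 at chr6:71322788-71337494 and Cd8a at chr6:71373427-71379173. Cells with Cd8a alone, the pattern of some unconventional lymphocytes, numbered 16 (5.73%) and 21 (8.37%). Lef1 is the only one of the given markers that the rule did not use, and after thinning of each cell to 1000 UMIs it was found in 21.1% of control and 20.3% of fibrosis CD8 T cells. CD4 T cells, chosen by the mirrored rule, gave 31.5% (17 of 54) and 21.7% (13 of 60), so Lef1 did not set CD8 T cells apart from them. The same measure gave 3.86% and 2.47% of NK cells (median depth 2202 and 2730 UMIs) and 0.798% and 0.375% of B cells. Markers of other lymphocytes were mixed. Of 8 genes listed for CD4 and regulatory T cells 2 reached 20 UMIs over both libraries, Tnfrsf18 (33 and 23 UMIs) and Izumo1r (15 and 13), while Foxp3, which defines regulatory T cells, had 0 and 1; their summed level was 64.1 and 49.5 CPM. Of 7 genes listed for NKT and MAIT cells 4 did, namely Slamf6 (143 and 102 UMIs, in 33.0% and 30.7% of cells), Cd160 (22 and 17), Tmem176a (26 and 41) and Tmem176b (31 and 52), while Zbtb16, their defining factor, had 0 and 1. None of 4 genes listed for gamma-delta T cells did, and Il23r was at 0 in both libraries. Of 12 NK cell genes 5 did (Gzma, Tyrobp, Fcer1g, Irf8 and Eomes), with Tyrobp at 492 and 257 UMIs and the NK receptor gene Klrb1c at 3 and 2.

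The cells near the thresholds of the rule were as follows. Just inside it, 41 control and 39 fibrosis cells had a single Cd8 UMI. Just outside it, 274 and 224 cells had CD3 transcripts but neither Cd8 nor Cd4. In those excluded cells Lef1 stood at 269.7 CPM in control and 169 CPM in fibrosis, against 176 and 333 CPM in the cells with 1 Cd8 UMI. Cells with 2 of the 6 excluded genes numbered 16 and 9, with Ccl5 at 9009 and 2337 CPM. Cells with 1 of the 6 numbered 69 and 77, with Ccl5 at 2983 and 5464 CPM. Klrg1, carried by terminal effector cells, and Cxcr6, carried by many resident memory cells, are among the 6, so cells with both were left out by the rule.

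CD8 T cells made up 3.48% of control cells (interval 3.09 to 3.90, 279 of 8026) and 3.61% of fibrosis cells (3.19 to 4.08, 251 of 6945). As a share of cells with at least 2 CD3 UMIs they were 38.0% (34.4 to 41.6, of 735) and 32.9% (29.6 to 36.4, of 763). CD4 T cells chosen by the mirrored rule numbered 54 and 60, which gives 5.17 CD8 T cells for each CD4 T cell in control (3.85 to 7.05) and 4.18 in fibrosis (3.15 to 5.64). The intervals of each of these 3 pairs overlap. Cd4 transcripts are easily missed in droplets, so the ratio counts detected cells, and a lower number of cells and less Cd4 RNA per cell cannot be told apart.

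Some of the cells carried RNA of other lung cells. Scgb1a1, the secretory protein of airway club cells, was found in 279 of 279 control and 251 of 251 fibrosis CD8 T cells, and in 98.2% and 96.8% of them after thinning. B cells gave 99.0% and 96.3%, so it was as widespread there. Other transcripts were unevenly spread: 28 control cells (10.0%) and 28 fibrosis cells (11.2%) had over 2% of their UMIs on markers of epithelial, myeloid, B, endothelial or red cells. These cells were deep, with medians of 5414.5 and 6278 UMIs. Comparisons between the libraries were therefore repeated without them, on 251 and 223 cells, a step added after the data had been seen. The value without them is given where it bears on a result. For the markers that chose these cells, such a value follows in part from the choice and is no independent check.

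Ccl5 divided the class. A Ccl5 UMI was present in 103 of 279 control cells (36.9%) and 74 of 251 fibrosis cells (29.5%). At 1000 UMIs per cell the shares were 26.5% (21.4 to 32.1) and 23.1% (18.04 to 28.8), against 4.09% and 4.87% of B cells, a type that should lack it. With all UMIs, the depth at which cells are divided here, B cells gave 7.68% and 11.05%. NK cells, which express Ccl5, gave 93.7% and 87.7% of thinned cells, and CD4 T cells 7.41% and 16.7%. Ccl5 transcripts were concentrated: the 10 richest cells held 47.8% of the control UMIs and 60.4% of the fibrosis UMIs. A single UMI was found in 30 control and 18 fibrosis cells, and 5 or more in 64 and 47. Nkg7, a granule membrane protein, was detected in 51.6% (45.6 to 57.6) and 43.8% (37.6 to 50.2) of the thinned cells, against 1.496% and 2.81% of B cells, 5.56% and 11.7% of CD4 T cells and 92.6% and 76.5% of NK cells. Ccr7 was detected in 23.3% (18.5 to 28.7) and 23.5% (18.4 to 29.2), against 0 of 285 and 0 of 162 NK cells, which allows shares of up to 1.29% and 2.25% (upper ends of the exact 95% binomial intervals). CD4 T cells, at 46.3% and 28.3%, and B cells, at 26.2% and 15.5%, carry Ccr7 as well. For Ccl5, Nkg7 and Ccr7 the intervals of the libraries overlap. Such shares are ranges of detection and not cell types.

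**Figure D1:**
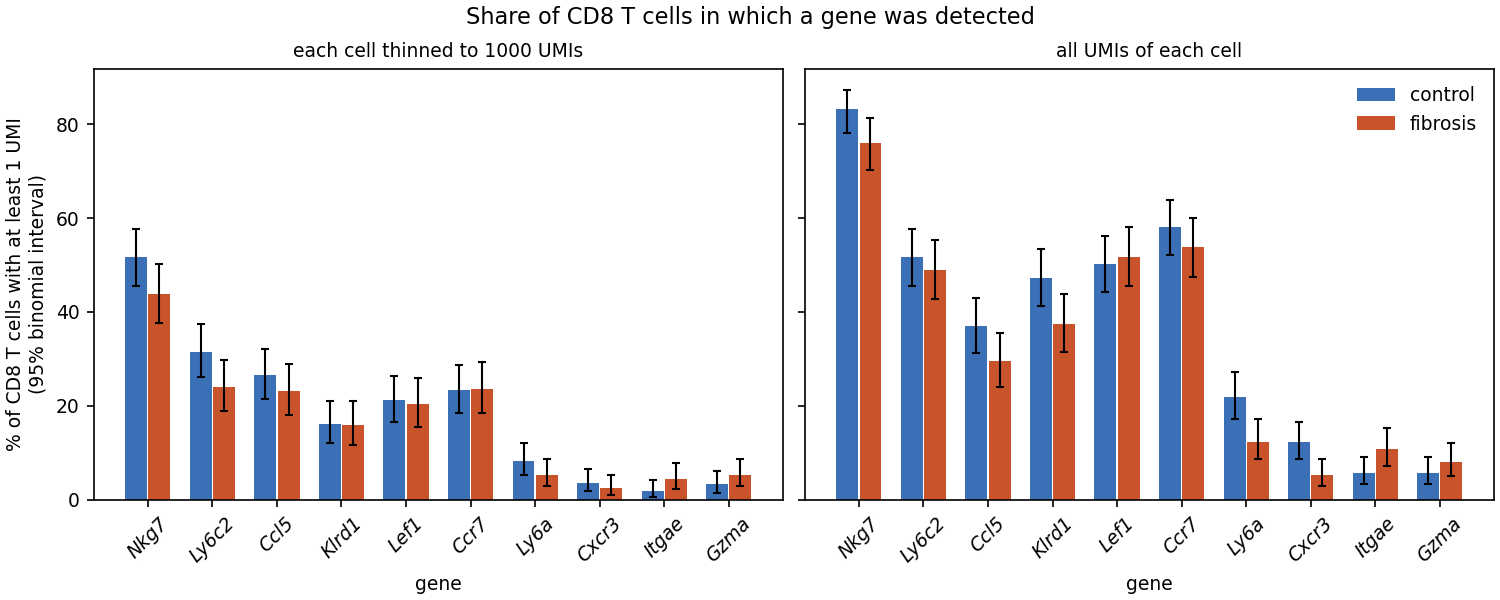
Percent of CD8 T cells (vertical axis) with at least 1 UMI of each of 10 genes (horizontal axis), control in blue (279 cells) and fibrosis in orange-red (251 cells). Bars are shares and whiskers are exact 95% binomial intervals; at 1000 UMIs per cell (left) Ccl5 was found in 26.5% and 23.1% of cells, and with all UMIs (right) in 36.9% and 29.5%.

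Summed over the cells with Ccl5, granule proteases were at higher levels than in the rest of the class in both libraries. Gzma, granzyme A, stood at 415 CPM in control cells with Ccl5 and 12.1 CPM in those without. In the fibrosis library it was at 868 and 11.8 CPM. It was found in only 16 of all 279 control and 20 of all 251 fibrosis CD8 T cells. The 5 richest cells held 88.2% and 81.1% of its UMIs, so its summed levels rest on few cells. Gzmb, granzyme B, was at 122 CPM (53 UMIs) against 0 UMIs in the control library, at least 23.6-fold higher over the floor of 3 counts, and at 111 and 1.68 CPM in the fibrosis library. Gzmm, granzyme M, was at 69.2 and 3.45 CPM, then 117 and 1.68 CPM. All 3 granzymes had between 0 and 7 UMIs in the cells without Ccl5 of either library.

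Tbx21, which encodes the effector transcription factor T-bet, had 14 UMIs in control cells with Ccl5 and 0 in the others (at least 6.24-fold), and 18 against 0 in the fibrosis library (at least 10.7-fold). The NK receptor genes Klre1 (31 against 3 UMIs, then 11 against 0) and Klra7 (20 against 0, then 14 against 1) showed the same side. Lgals1, galectin-1, was at 830 and 178 CPM in control cells with and without Ccl5 (log2 ratio 2.22, interval 1.91 to 2.56), and at 1068 and 200 CPM in the fibrosis library (2.41, 2.11 to 2.73). Ctla2a, an inhibitor of cysteine proteases, differed by 2.58 and 3.56 on the log2 scale. With the 3 granzymes these are the 8 genes that led this side.

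Genes of naive cells lay on the other side, with smaller ratios. Igfbp4, which binds insulin-like growth factors, was at 71.5 CPM with Ccl5 and 307 CPM without in control (log2 ratio -2.08, interval -2.70 to -1.55), and at 98.7 and 284 CPM in the fibrosis library (-1.51, -2.11 to -0.98). Ccr9, a receptor for gut homing, had ratios of -1.90 and -2.82, from 7 against 37 UMIs and 2 against 31. Lef1 had -0.85 and -1.04, and Dapl1 -0.78 and -1.18. The others of the 8 leading genes were Rgcc (-1.94 and -1.57), Fam101b (-1.21 and -1.18), Peli1 (-0.74 and -0.93) and the nuclear RNA Malat1 (-0.36 and -0.36).

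Effector genes were counted next. Of 24 memory and effector genes with at least 20 UMIs (Ccl5 left out), 12 were at least 2-fold higher with Ccl5 in both libraries: Cd44, Il2rb, Eomes, Tbx21, Cxcr3, Ly6c2, Itgb1, Il18rap, Cx3cr1, S100a6, Lgals1 and Ahnak. Of 16 cytotoxic and NK receptor genes 9 were: Gzma, Gzmb, Gzmm, Serpinb9, Serpinb6b, Klrk1, Klrc1, Klre1 and Klra7. Among all 6416 genes the share that was 2-fold higher in both libraries was 2.07%, and 0.779% were 2-fold lower. Of 17 naive genes 3 were lower (Igfbp4, Ccr9 and Tdrp) and none higher. The median log2 ratios were -0.50 and -0.75 for the naive list, 1.26 and 1.66 for the memory list, and 2.09 and 1.87 for the cytotoxic list (1.37 and 1.87 with genes at 0 set to their bound), beside 0.11 and 0.14 for all genes. Depth moved with the split: cells with Ccl5 had a median of 3741 and 3490.5 UMIs, those without 3002 and 2890, and the part of this in the result was not tested. The share of cells over 2% other-lineage UMIs was 10.7% and 13.5% with Ccl5 and 9.66% and 10.2% without.

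**Figure D2:**
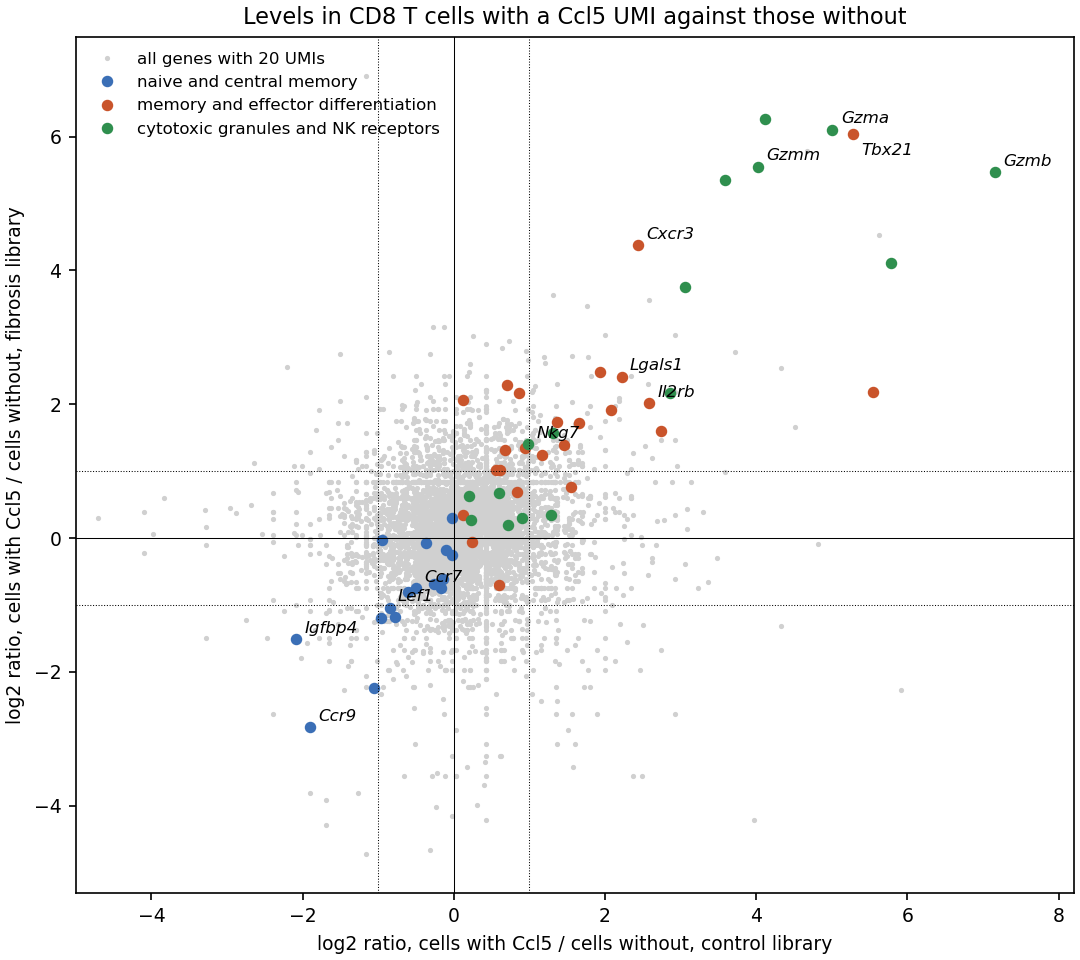
Log2 ratio of the level in CD8 T cells with a Ccl5 UMI over those without, in control (horizontal axis, 103 and 176 cells) and the fibrosis library (vertical axis, 74 and 177 cells). Each point is a gene, grey for all genes and coloured for 3 lists, dotted lines mark 2-fold, and points of genes with 0 UMIs on one side (Gzmb, Tbx21) depend on the 0.5 UMI added; granzymes and Tbx21 lie far up and right in both libraries, while Igfbp4, Ccr9 and Lef1 lie on the lower left.

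The windows upstream of these leading genes are shown because the genes lay on the same side of the Ccl5 split in both libraries. They are the 250 bases before the first listed transcription start in the RefSeq table (build GRCm38.p6), 5′ to 3′ on the gene's strand. Capitals mark the RUNX motif TGTGGT and the T-box motif AGGTGT, on either strand. The first 4 genes were higher in cells with Ccl5 and Ccr9 was lower. Gzma is at chr13:113100982-113101231 (minus strand), Gzmb at chr14:56262335-56262584 (minus), Gzmm at chr10:79688770-79689019 (plus), Klre1 at chr6:129577963-129578212 (plus) and Ccr9 at chr9:123766961-123767210 (plus). Gzmm and Klre1 have 2 listed starts each. In the GENCODE M21 annotation Klre1 spans chr6:129577905-129585827 and Ccr9 chr9:123678439-123784330. The windows of these 2 genes thus lie inside the annotated gene and not upstream of all of it.
Gzma: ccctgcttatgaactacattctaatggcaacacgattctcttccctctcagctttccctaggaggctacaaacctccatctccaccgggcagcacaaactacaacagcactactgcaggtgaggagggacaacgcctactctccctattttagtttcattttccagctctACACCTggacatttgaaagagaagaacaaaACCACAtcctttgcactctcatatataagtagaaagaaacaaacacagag
Gzmb: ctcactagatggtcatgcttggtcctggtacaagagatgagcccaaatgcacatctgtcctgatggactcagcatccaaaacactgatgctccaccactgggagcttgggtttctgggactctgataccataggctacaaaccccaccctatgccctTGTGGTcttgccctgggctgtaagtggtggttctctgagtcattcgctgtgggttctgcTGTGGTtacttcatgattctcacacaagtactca
Gzmm: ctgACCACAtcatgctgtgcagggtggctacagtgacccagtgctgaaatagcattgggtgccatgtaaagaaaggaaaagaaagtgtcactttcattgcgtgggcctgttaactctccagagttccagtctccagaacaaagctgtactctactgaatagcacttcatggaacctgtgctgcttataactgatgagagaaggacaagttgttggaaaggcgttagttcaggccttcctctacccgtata
Klre1: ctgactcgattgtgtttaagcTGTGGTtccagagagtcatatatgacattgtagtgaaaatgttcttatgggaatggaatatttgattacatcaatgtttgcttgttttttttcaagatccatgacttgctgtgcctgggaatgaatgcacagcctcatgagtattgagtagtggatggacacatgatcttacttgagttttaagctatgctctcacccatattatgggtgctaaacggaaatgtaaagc
Ccr9: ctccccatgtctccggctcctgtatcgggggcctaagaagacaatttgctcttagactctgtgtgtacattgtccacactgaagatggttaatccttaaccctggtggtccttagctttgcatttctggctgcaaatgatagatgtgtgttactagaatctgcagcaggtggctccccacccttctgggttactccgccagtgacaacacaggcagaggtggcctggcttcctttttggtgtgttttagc

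The RUNX motif, bound by factors that include Runx3 of the CD8 lineage, was present in 4 of the 7 windows found for the 8 leading genes that were higher with Ccl5 (Gzma, Gzmb, Gzmm and Klre1). It was in 0 of the 7 windows found for the 8 genes that were lower. Of the first windows of all 27025 genes listed by RefSeq, 14.2% held it. Its first base on the gene's strand lay 50 bases before the start in Gzma, 93 and 34 in Gzmb, 247 in Gzmm and 229 in Klre1. The T-box motif was in 1 of 7 windows (Gzma, 80 bases before the start) and 0 of 7, against 12.0% of all genes. The TCF/LEF motif CTTTGA, searched on either strand, was in 1 of 7 (Klra7) and 0 of 7, against 14.05%. With 7 windows a side these counts are small, and they are matches of letters in short windows that say nothing of binding.

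Between the libraries, most naive genes of the whole class were at similar levels. Lef1 was at 233 CPM in control and 242 CPM in fibrosis (log2 ratio 0.06, interval -0.21 to 0.33), and Tcf7 at 226 and 229 CPM (0.02, -0.26 to 0.30). Il7r, the interleukin-7 receptor that sustains naive and memory cells, was at 445 and 439 CPM (-0.02, -0.22 to 0.18). Ccr7 was lower in the fibrosis library by less than 2-fold, at 292 and 233 CPM (-0.32, -0.58 to -0.07). None of the 17 naive genes was 2-fold apart in either direction, and their median was -0.02. Across all 6426 genes with at least 20 UMIs, 4.95% were at least 2-fold higher in the fibrosis library and 3.13% at least 2-fold lower, with a median log2 ratio of 0.01.

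The median of the effector genes was near 0, and single members lay apart. Of 25 memory and effector genes 0 were 2-fold higher and 1 was 2-fold lower, with a median of 0.08. Ccl5 was at 2314 and 2436 CPM (0.07, -0.01 to 0.16), and had a ratio of 0.24 (0.15 to 0.33) without the cells rich in other-lineage RNA. The lower gene was Cxcr3, the receptor for interferon-induced chemokines, at 41.4 and 19.4 CPM (42 and 18 UMIs, -1.07, -1.98 to -0.27), and -0.99 without the cells rich in other-lineage RNA. Ly6c2, whose counts are uncertain because Ly6c1 is a close copy, was at 564 and 410 CPM (-0.46, -0.65 to -0.27; -0.23 without those cells), and S100a4 at 159 and 95.8 CPM (-0.73, -1.12 to -0.35). Crip1 was at 1110 and 1476 CPM (0.41, 0.30 to 0.53).

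Granule genes were uneven, and some rested on a few cells. Of 16 cytotoxic and NK receptor genes 1 was 2-fold higher (Klrc1, an inhibitory receptor subunit, 6 and 21 UMIs) and 1 was 2-fold lower (Klre1, 34 and 11 UMIs), with a median of -0.03. Over all genes the shares were 4.95% and 3.13%. Gzma was at 184 CPM in 16 control cells and 320 CPM in 20 fibrosis cells (0.79, 0.52 to 1.06), but the 5 richest cells held 88.2% and 81.1% of its UMIs. Without cells rich in other-lineage RNA its ratio was 0.47. Nkg7 was spread over 83.2% and 76.1% of cells at 820 and 692 CPM (-0.24, -0.40 to -0.09). Prf1, perforin, had 6 and 4 UMIs in all, and Gzmk 10 and 8, too few to compare.

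Ifng, the effector cytokine interferon gamma, had 1 and 0 UMIs over all CD8 T cells. The checkpoint genes Pdcd1 (2 and 0 UMIs), Ctla4 (1 and 1), Lag3 (4 and 3) and Tigit (0 and 1) had few UMIs as well, while 5 of 16 genes of that list reached 20 UMIs and its summed level was 180 and 165 CPM. A count of 0 allows up to 3 UMIs in a library's sum. Itgae was found in 5.73% and 10.8% of cells, at 18.7 and 34.4 CPM (0.86, 0.01 to 1.78), with a ratio of 0.58 without cells rich in other-lineage RNA. Cd69 was at 131 and 137 CPM (0.06, -0.30 to 0.42), and Zfp683, a factor of resident memory cells, had 0 and 1 UMIs. Of 9 residency genes 2 were 2-fold higher (Bhlhe40 and Car2) and 1 lower (Xcl1, 18 and 6 UMIs), beside 4.95% and 3.13% of all genes. The ratio of Bhlhe40 went from 1.59 to 0.23 without the cells rich in other-lineage RNA.

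**Figure D3:**
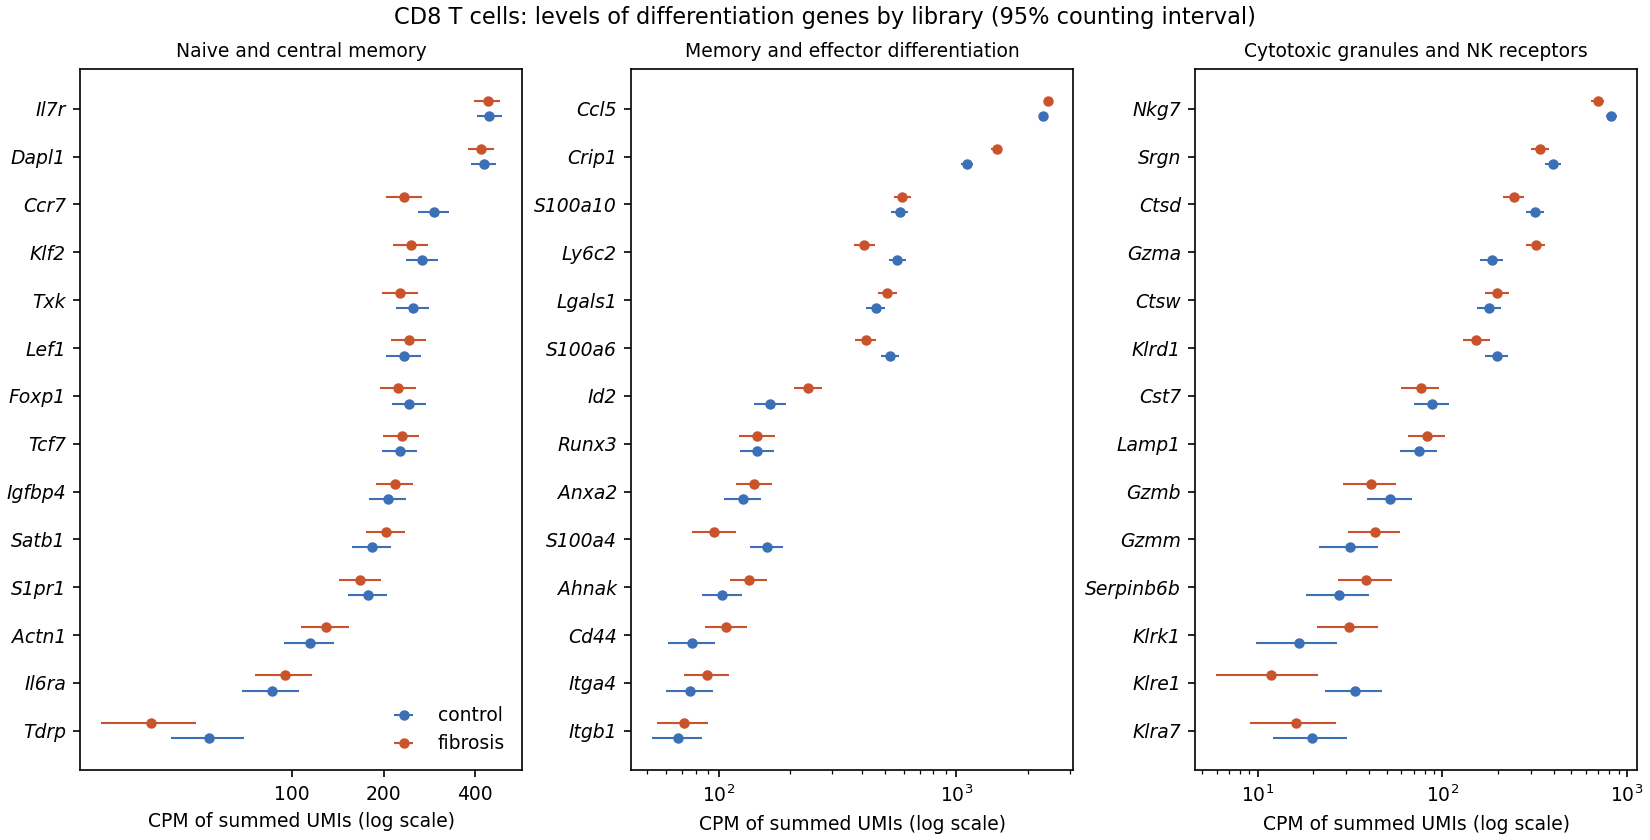
Level of genes of 3 lists in CD8 T cells, in CPM of summed UMIs on a log axis, control in blue and fibrosis in orange-red; whiskers are 95% counting intervals, and 14 of the genes with the most UMIs are shown per list. The intervals of the naive genes overlap between the libraries, while those of Crip1, Ly6c2, S100a4, Gzma and Klre1, among others, do not; levels of different genes are not to be compared, since priming and length differ.

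Ly6a, the surface protein Sca-1 that interferon induces on T cells, had the lowest ratio of any gene in the 16 pathway lists. It was at 171 CPM in control (173 UMIs in 61 cells) and 57.0 CPM in the fibrosis library (53 UMIs in 31 cells), a log2 ratio of -1.57 (-2.05 to -1.13), and -1.55 without the cells rich in other-lineage RNA. In cells with Ccl5 it was at 270 and 50.9 CPM (-2.37, -3.24 to -1.67), in cells without at 96.5 and 60.5 CPM (-0.67, -1.32 to -0.04). The 5 richest control cells held 46.8% of its UMIs. Summed endothelial markers were lower too, at 338 and 141 CPM, and at 281.5 and 139 CPM without the cells rich in other-lineage RNA. Their median log2 ratio with over without Ccl5 was 1.71 in control and -1.47 in the fibrosis library. The part of such RNA in the ratio of Ly6a was not tested. The gene lies at chr15:74994877-74998031. CD4 T cells had a ratio of -0.21, B cells -0.57 and NK cells 1.15, and the difference between classes was not tested.

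The interferon response list as a whole was slightly lower. Of 22 genes 0 were 2-fold higher and 4 were 2-fold lower, beside the 3.13% of all genes given above: Ly6a, Irf7 (28 and 12 UMIs), Ifit3 (14 and 6) and Rtp4 (34 and 15). Their ratios were -1.57, -1.06, -1.03 and -1.03, and -1.55, -0.37, -0.82 and -0.85 without the cells rich in other-lineage RNA. The median was -0.31, and -0.32 in the other lymphocytes (CD4 T, NK and B cells). Psmb8 of the immunoproteasome was at 477 and 373 CPM (-0.35, -0.56 to -0.15).

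Genes of antigen receptor signalling were lower by small amounts. Of 21 genes none was 2-fold apart, and for 9 the interval lay below 0. Lck, the kinase of the receptor's first step, was at 392 and 278 CPM (-0.50, -0.73 to -0.27), Lat, its scaffold, at 317 and 238 CPM (-0.41, -0.67 to -0.16), and the costimulatory receptor Cd27 at 222 and 161 CPM (-0.46, -0.77 to -0.16). The list's median was -0.21, and -0.07 without the cells rich in other-lineage RNA; it was -0.53 in the other lymphocytes. T cell receptor constant chains were not analysed here.

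Cell cycle genes were found in few cells. With at least 1 UMI of 10 core mitotic and replication genes in 1000 UMIs, a measure added after the data had been seen, 3.58% of control cells (10 of 279) and 3.59% of fibrosis cells (9 of 251) had such a UMI. With all UMIs the shares were 5.73% (16 of 279, 3.31 to 9.15) and 8.37% (21 of 251, 5.25 to 12.5). The wider list of 27 genes holds broadly expressed members such as Hmgb2 and Tubb5, and at least 2 of its UMIs were found in 29.4% and 30.7%. Of its 22 genes with 20 UMIs, 4 were 2-fold higher in the fibrosis library (Mki67, Cdk1, Rrm1 and the histone gene Hist1h2ap), beside 4.95% of all genes. Without cells rich in other-lineage RNA the ratio of Mki67 went from 1.16 to 0.36 and that of Cdk1 from 1.38 to -0.01, while that of Rrm1, a subunit of ribonucleotide reductase, was 2.08 with them and 2.18 without. Hist1h2ap had 48 and 389 UMIs, and the 5 richest cells held 93.8% and 92.3% of them. Its ratio was 3.13, and 2.45 without cells rich in other-lineage RNA. It was higher in the other classes too, at 3.70 in NK and 2.93 in B cells, with 0 and 85 UMIs in CD4 T cells.

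The genes with the largest ratios between the libraries fell into 3 groups. The first holds genes of other lung cells. Sftpc, surfactant protein C of alveolar type 2 cells, was at 2983 and 14253 CPM (2.26, 2.20 to 2.31), with 59.0% and 80.9% of its UMIs in 5 cells, and had a ratio of 0.06 without the cells rich in other-lineage RNA. Sftpd (2.90) and Chil1 (2.68) had 1.88 and 0.90 without them. Ccl17, a chemokine of dendritic cells, had 1 and 102 UMIs, of which 97 were in 1 cell, and 1 and 2 UMIs without those cells. Retnla, secreted by airway cells and macrophages, had 4 and 170 UMIs (5.37, 4.15 to 7.43) and kept 4.71. Its ratios were 5.77, 6.20 and 5.95 in CD4 T, NK and B cells. Sftpc, Sftpd and Retnla are among the markers that chose the removed cells, so their values without those cells are no independent check.

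The counts by list stand beside 4.95% of all genes at least 2-fold higher and 3.13% at least 2-fold lower. As lists, 7 of 8 alveolar type 2 markers were 2-fold higher and 1 lower, and their summed level was 4010 and 18394 CPM (1689 and 1968 CPM without those cells). Of 6 neutrophil markers 5 were 2-fold lower, with summed levels of 5201 and 2293 CPM (552 and 291 CPM without), and Retnlg (-1.81) and the protease inhibitor Slpi (-1.99) belong to the leading lower genes. Without the cells that scrublet, a doublet caller, marked, Retnlg turned to 0.86 and Slpi was at -0.81, so neither call of lower levels held. Of 6 endothelial markers 4 were lower, with summed levels of 338 and 141 CPM (281.5 and 139 CPM without). Tmem100 (60 and 6 UMIs), Sema3c (49 and 5), Kdr (27 and 5), Foxf1 (22 and 3), Car4 (37 and 12) and Thbd (41 and 10) were lower too, and Kdr, Car4 and Thbd went the other way in NK cells. Without scrublet-marked cells Car4 turned to 0.53 and Kdr was at -0.53, while Thbd was at -1.76. Summed B cell markers were at 459.7 and 1666 CPM (156 and 321 CPM without those cells), and 2 of the 3 with 20 UMIs were 2-fold higher. None of the alveolar type 2, neutrophil and endothelial markers was at 0 in both libraries. Their part in the other results was not tested beyond the values without those cells. The listed markers also chose those cells, so the summed levels without them follow in part from the choice.

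The second group had ratios of similar size in other lymphocyte classes. Nme2, a nucleoside diphosphate kinase, had 12 and 121 UMIs (3.41, 2.60 to 4.45), with ratios of 3.50 (1.44 to 9.42, from 1 and 24 UMIs), 3.15 and 3.37 in CD4 T, NK and B cells. The non-coding AY036118 had 48 and 585 UMIs (3.72), with 3.92, 4.23 and 4.24, and the glycolytic enzyme gene Pgk1 12 and 56 UMIs (2.30). On the lower side stood the processed pseudogenes Rps18-ps3 (-2.84) and Gm10263 (-2.31), the retrotransposed copy Rps27rt (-2.04), the genes Gm6133 (-2.32) and Wdr89 (-1.90) and the non-coding Gm12840 (-2.77). Their ratios lay between -1.76 and -3.42 in the other classes that had a value, except Gm12840 in B cells (0.17). Rps27, the parent of Rps27rt, was at 15223 and 14200 CPM (-0.10). Counts of such copies are uncertain, since their reads may be shared with the parent gene. Both libraries list the same gene identifiers in the same order and have the same Cell Ranger version in the submitters' processing notes, but how each was counted is not given further, so a difference in counting and a difference in RNA cannot be told apart for genes that shift in every class.

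The third group is small and rests mostly on few cells. Tcea3, a transcription elongation factor, had 0 UMIs in the control library and 27 in 11 fibrosis cells, at least 9.82-fold higher. Its log2 ratio was 0.66 in NK cells and 0.73 in B cells, higher in the fibrosis library as well. Ccdc153 (1 and 23 UMIs in 1 and 3 cells), 1700016K19Rik (1 and 20 UMIs in 1 and 5 cells), Prr15l (2 and 23 UMIs) and Mogs (2 and 19 UMIs in 2 and 18 cells) also led after the median of the other lymphocytes was subtracted. On the lower side after subtraction Mgp (24 and 14 UMIs) led with a log2 ratio of -0.63 here. Its log2 ratio was 4.12 and 3.38 in NK and B cells, but -2.81 (-4.45 to -1.62) in CD4 T cells. Mogs was the most widely spread of these 5 higher genes, with 31.6% of its fibrosis UMIs in 5 cells. The lists of other cell types cover neither ciliated cells nor fibroblasts, so the 2% cutoff does not take out cells with their RNA. Without the cells over it Tcea3 had 0 and 20 UMIs, Ccdc153 1 and 22, 1700016K19Rik 1 and 19, Prr15l 1 and 11 and Mogs 2 and 13. Whether the RNA of this group came from CD8 T cells or from other lung cells was not tested.

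Without the cells rich in other-lineage RNA 5456 genes had 20 UMIs, and 3.3% of them were at least 2-fold higher and 3.26% at least 2-fold lower. Of the 318 genes first called higher, 166 still had 20 UMIs and 114 were still 2-fold higher. Of these 104 had a value in both NK and B cells, where 28 were also 2-fold higher. Of the 201 called lower, 143 still had 20 UMIs and 105 were still 2-fold lower. Among these, 11 of 91 with values were also 2-fold lower in NK and B cells. The share of all genes that were 2-fold apart in both NK and B cells is not given here, so these overlaps cannot be set against it.

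**Figure D4:**
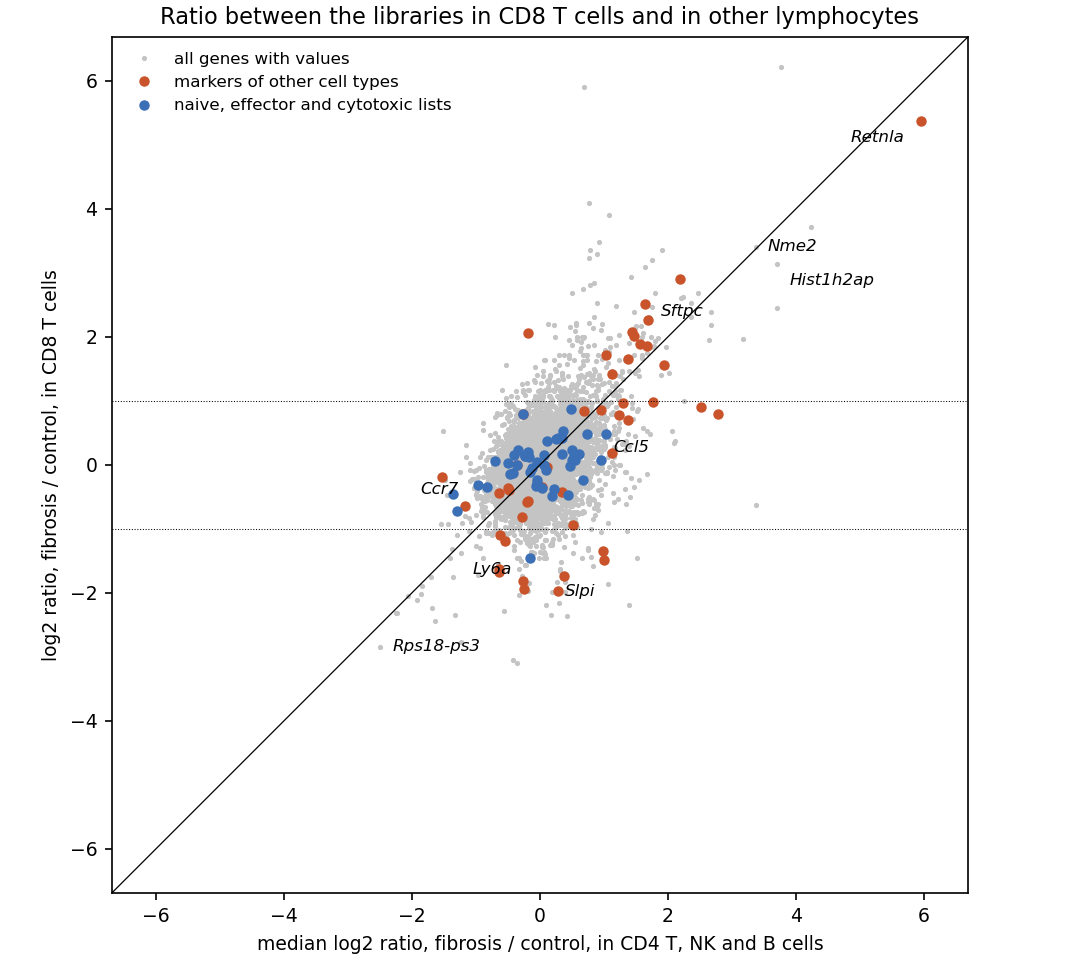
Log2 ratio of fibrosis over control in CD8 T cells (vertical axis) against the median of that ratio in CD4 T, NK and B cells (horizontal axis) for 5910 genes with values in at least 2 of those classes. Orange-red points are 46 markers of other cell types, blue points 47 genes of the naive, effector and cytotoxic lists, the line marks equal ratios and dotted lines mark 2-fold; Nme2 and Rps18-ps3 lie near the line and most blue points lie within 2-fold.

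CD8 T cells were then set beside CD4 T cells and NK cells, the lymphocytes most like them. Of 17 naive genes 1 was 2-fold higher and 1 lower in CD8 than in CD4 T cells in both libraries, beside 2.22% and 2% of all 6936 genes. Ccl5 was at 2314 CPM in CD8 and 196 CPM in CD4 T cells of the control library (log2 ratio 3.54, 3.01 to 4.18), and at 2436 and 448 CPM in the fibrosis library (2.43, 2.13 to 2.77). Nkg7 had ratios of 2.91 and 1.99, Ly6c2 2.37 and 3.60, Klrd1 3.39 and 2.71, and Gzma 2.81 and 5.36. Runx3, the factor that directs the CD8 lineage, was at 145 and 30.1 CPM and at 145 and 20.8 CPM (2.10 and 2.64), and Ctsw and Ifitm1 were also higher. Of 17 cytotoxic genes 8 were 2-fold higher and none lower.

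Lower than in CD4 T cells were Cd40lg, the helper ligand for B cells (8 and 11 UMIs, then 1 and 9), and Izumo1r, the folate receptor 4 of helper and regulatory cells (ratios -3.02 and -2.73). Igfbp4 was at 206 and 647 CPM in control and at 217 and 521 CPM in fibrosis (-1.66 and -1.27). Ass1 (-2.18 and -2.33), Tspan32 (-2.60 and -1.72), Tesc (-1.96 and -2.72), Pdlim4 (-3.11 and -3.01) and Myo6 (-2.54 and -3.01) completed the 8. The CD4 class was small, with 54 and 60 cells, and its intervals are wide.

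Against NK cells the naive genes were higher. Dapl1 had 433 and 389 UMIs in CD8 T cells and 2 and 2 in NK cells (log2 ratios 7.26 and 6.86), and Ccr7 296 and 217 against 2 and 3 (6.71 and 5.54). Il7r was at 445 and 12.3 CPM and at 439 and 17.3 CPM (5.11 and 4.61). Gm8369, Klk8, Nsg2, Fam169b and Tmem108 were also higher, Tmem108 at least 13.5-fold and 10.7-fold over 0 UMIs in NK cells. Of 17 naive genes 12 were 2-fold higher in both libraries and none lower, beside 2.13% of all 9096 genes. Of 23 genes of the ribosome list 12 were higher.

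Receptor genes of NK cells were on the other side. Klra4 had 5 and 0 UMIs in CD8 T cells and 550 and 262 in NK cells (at least 117-fold higher in NK cells of the fibrosis library), and Klrb1c 3 and 2 against 429 and 204. Klra8, Klri2, Klra9 and Klre1 followed, and Cma1 and Klrb1f had no UMI in any CD8 T cell. Of 23 cytotoxic and NK receptor genes 16 were 2-fold lower and 1 higher, and of 27 memory and effector genes 18 were lower, beside 13.3% of all genes. Members of the Klra family are close copies of each other, so their single counts are uncertain. Of the NK cells, 35.8% and 35.2% had over 2% of their UMIs on the markers counted as other-lineage. These markers include Fcer1g, which is also listed as an NK cell gene, so the shares cannot be read as foreign RNA alone. The part of other-lineage RNA in these ratios was not tested.

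**Figure D5:**
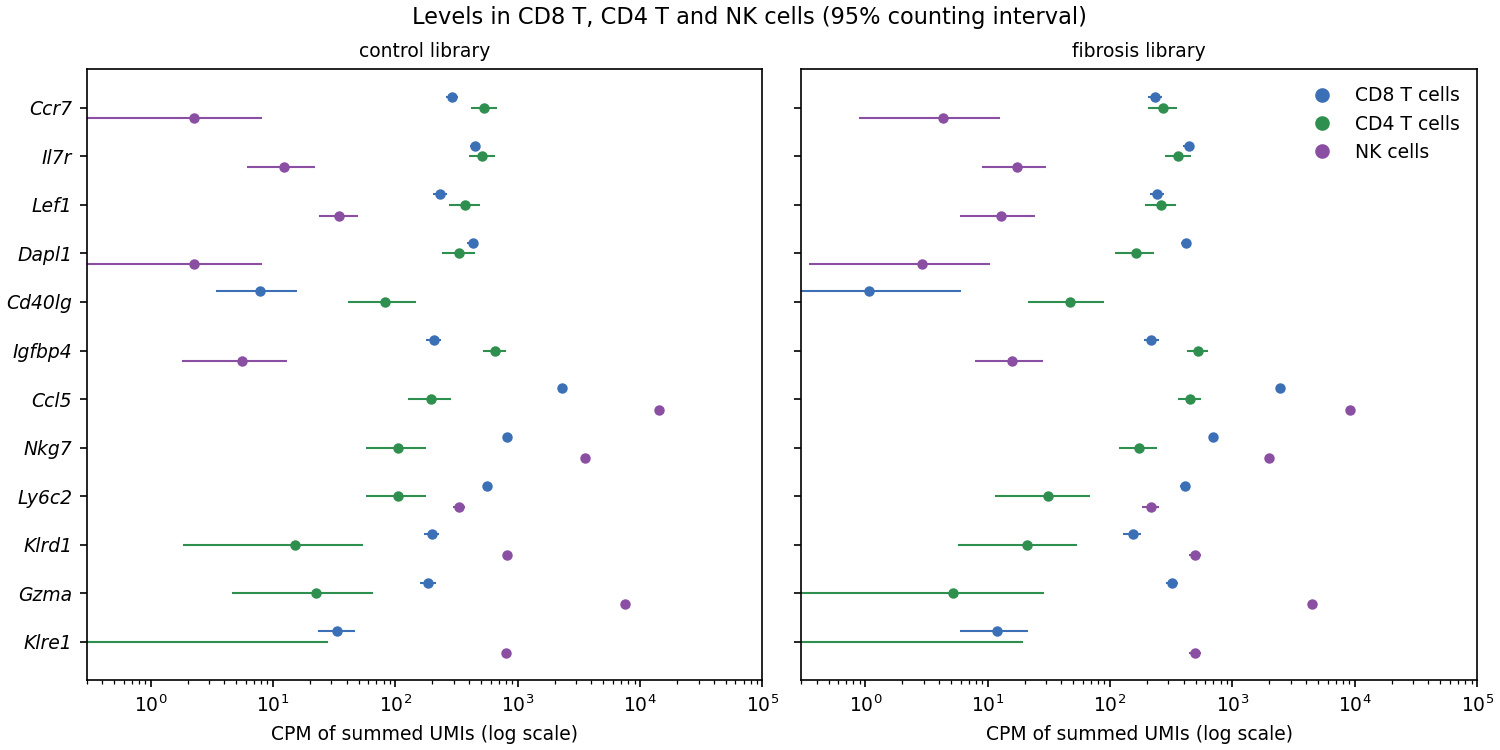
Level in CPM of summed UMIs (log axis) of 12 genes in CD8 T cells (blue), CD4 T cells (green) and NK cells (purple), control library left and fibrosis library right; whiskers are 95% counting intervals, a line with no point is a count of 0, and Cd40lg is not drawn for NK cells, where it was below the UMI minimum. Ccr7, Il7r, Lef1 and Dapl1 are far lower in NK cells than in both T cell classes, and Ccl5, Nkg7 and Gzma are lowest in CD4 T cells and highest in NK cells in both libraries.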

How the data were processed

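Whole-lung single cells of 2 libraries (10x Genomics 3′ chemistry) were deposited by the authors as raw UMI counts per cell for 27998 genes. Per the submitters' processing notes, Cell Ranger 1.3 and bcl2fastq were used with mm10; counting options are not given in the sources used here.

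From these counts, UMIs were summed per class and library. CPM carry exact Poisson, ratios exact conditional-binomial and shares exact Clopper-Pearson intervals (95%, scipy 1.17.1), which cover counting error only. A gene was called at a 2-fold ratio (0.5 UMI added) with at least 20 UMIs over both libraries. CD4 T cells had the mirrored rule; NK cells had Ncr1, at most 1 CD3 UMI and no Cd79a, and B cells at least 2 Cd79a UMIs, no CD3 and no Ncr1. Doublets were kept. Scrublet (scanpy 1.11.5) marked 5 control and 168 fibrosis cells by its own threshold, so the expected share (0.8% per 1000 cells) served in an alternative and marked 26 and 19 CD8 T cells. The ratio, its interval and the call were tested on simulated data.

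The members, the 16 pathway lists and the 12 lists of other cell types were chosen with earlier results of these data known. Of 414 listed symbols 13 are not analysed here, and some genes are not reported here by name; the planned division into cell states was therefore reduced to detection of Ccl5. Named genes were, between libraries, in each direction the 10 whose interval bound nearest 0 was the most extreme, and the 5 after subtraction of the median of the other lymphocytes; within a library, the 8 with the most extreme such bound in the library where it was weaker; and genes of the pathway lists. Genes used by the choosing rule are in the counts over all genes and otherwise given as description. Positions come from GENCODE M21 (GRCm38; 6418 of 6426 identifiers matched) and upstream windows from RefSeq. Alternatives covered the cell rules, depth, scaling, filters and pseudocount.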

Additional observations from a re-analysis of the deposited data

Results flagged for a closer look

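Some genes moved in opposite directions between the libraries in CD8 T cells and in another lymphocyte class; with 1 library per group the differences between classes were not tested. Retnlg, a neutrophil gene, had a log2 ratio of fibrosis over control of -1.81 in CD8 T cells and 1.16 in CD4 T cells. In NK and B cells it was lower too, at -0.27 and -1.20. Slpi had -1.99 in CD8 and 2.02 in CD4 T cells, with 0.19 in NK and -0.29 in B cells. Kdr, the endothelial receptor for VEGF, had -2.20 in CD8 T cells, 1.73 in NK cells and 1.04 in B cells. Foxf1 had -2.56 in CD8 T cells and 0.93 in B cells. Car4 had -1.46 in CD8 T cells and 3.18 in NK cells, and Thbd -1.86 and 1.73. In B cells Car4 had -0.17 and Thbd 0.38. None of these is a gene of T cells. Their UMIs sat in few CD8 T cells: the 5 richest control cells held 62.4% of Retnlg, 67.0% of Slpi, 88.9% of Kdr, 77.3% of Foxf1, 81.1% of Car4 and 80.5% of Thbd. Without the cells over 2% other-lineage UMIs the ratios in CD8 T cells were -2.51, -0.85, -1.44, -2.30, -1.44 and -1.84 in the same order. Without the cells marked by scrublet they were 0.86, -0.81, -0.53, -2.94, 0.53 and -1.76, so that in CD8 T cells Retnlg and Car4 were no longer lower and Slpi and Kdr were less than 2-fold lower; the ratios of the other classes were not recomputed without such cells.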

How the results depend on the processing

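The share of CD8 T cells was 3.93% of control cells with the same UMI floor of 1915 in both libraries. The share was 2.97% and 3.05% (control and fibrosis) with at least 2 Cd8 UMIs, and 4.03% and 4.43% with at most 5% mitochondrial UMIs. Genes at least 2-fold higher numbered 318, and 180 without cells over 2% other-lineage UMIs, 683 with a minimum of 10 UMIs and 89 with 50; those lower numbered 201, then 412 with 10 and 52 with 50. Cells with Ccl5 made up 36.9% and 29.5% without thinning, and 20.1% and 16.7% with at least 2 Ccl5 UMIs. Cells with at least 2 UMIs of the wide cell cycle list made up 86.0% and 83.7% unthinned. That list holds broadly expressed genes, so these are not shares of cycling cells. Cells with at least 1 UMI of the core genes made up 3.58% and 3.59% thinned, or 5.73% and 8.37% unthinned. The naive list's median was 0.11 by the mean of per-cell CPM. Retnlg (0.86) and Car4 (0.53) reversed without cells marked by scrublet. The CD8 to CD4 ratio kept within its counting interval in 12 of 12 alternatives, and list medians moved by less than their spread in 159 of 160. Of the values of named genes, 359 moved by less than their interval, 29 by more and 2 reversed. No paired analysis was possible because each group has 1 library. Depth limits what is seen: genes below 20 UMIs over both libraries, Ifng among them, could not be compared.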

Other observations

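Other gene groups of the CD8 T cells were nearly level between the libraries. Their counts stand beside 4.95% of all genes at least 2-fold higher and 3.13% at least 2-fold lower. Of 19 glycolysis and hypoxia genes 1 was at least 2-fold higher (Pgk1) and none lower, with a median log2 ratio of -0.13; Pkm was at 239.7 and 165 CPM (-0.54, -0.84 to -0.24) and Eno1 at 180 and 227 CPM (0.34, 0.05 to 0.63). Of 15 MHC class I genes 1 was higher (Nlrc5, their transactivator, 19 and 36 UMIs) and none lower, with a median of -0.13. Among 22 genes of the cytoskeleton and migration none was 2-fold apart; Tmsb10, a small actin-binding protein found in every cell, was at 5145 and 8180 CPM (0.67, 0.62 to 0.72), beside a median of 0.57 in the other lymphocytes, and Itgal, a chain of the adhesion receptor LFA-1, was at 66.1 and 104 CPM (0.66, 0.20 to 1.13). Of the 22 T cell transcription factor genes Irf8 alone was 2-fold higher (18 and 70 UMIs, 2.06), and 0.66 without cells rich in other-lineage RNA. Tgfbr2, the receptor chain for TGF-beta, was at 37.5 and 58.1 CPM (0.63, 0.01 to 1.27).

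Of 7 cytokine and chemokine genes 1 was 2-fold lower (Xcl1), with a median of -0.19, and of 25 of their receptors 1 (Cxcr3), with a median of -0.18. None of 23 immediate-early and heat shock genes was 2-fold apart (median -0.18). Of 23 ribosome genes Nme2 alone was 2-fold higher (median -0.12), while for 15 the interval lay below 0.

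Cells with Ccl5 also held the few Xcl1 transcripts: 18 UMIs against 0 in the control library and 6 against 0 in the fibrosis library. Itgae lay on the other side, with 4 UMIs in cells with Ccl5 and 15 in cells without in the control library, and 4 and 28 in the fibrosis library (log2 ratios -1.36 and -1.83).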
